A study of Mus musculus with 12 samples.

Results

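Cohesin genes were followed in RNA-seq of mouse testes that had lost Xap5 in germ cells and of mouse sperm that had lost Xap5l. The 10 genes were chosen by symbol as the subunits of meiotic and mitotic cohesin and the shugoshin that protects them, and all 10 were found among the 51826 entries of the sperm count table and the 23502 entries of the testis table. Of these, 4 encode meiotic subunits (Rec8, Rad21l, Smc1b and Stag3), 4 their mitotic paralogues (Rad21, Smc1a, Stag1 and Stag2), 1 the shared subunit Smc3 and 1 the shugoshin Sgo2a, which the sperm table lists under its older symbol Sgol2a. In P16 Xap5 cKO testes all 4 meiotic subunits and Sgo2a fell, with Stag3, Smc1b and Sgo2a reduced by more than 2-fold. The shared Smc3 and the mitotic Stag1 fell by less, while the mitotic subunits Rad21 and Stag2 rose slightly. In P56 Xap5l KO sperm the meiotic subunits Rec8, Smc1b and Stag3 rose by more than 2-fold, and no mitotic subunit passed the test in either direction. The calls in sperm depended on single libraries, as described below.

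Cohesin is a ring-shaped complex that encircles DNA and holds sister chromatids together. Each ring has a pair of SMC proteins, a kleisin that closes the ring and a STAG protein bound to the kleisin. Germ cells entering meiosis make their own versions of these parts. Rec8 and Rad21l are meiotic kleisins, Smc1b is the meiotic partner of Smc3, and Stag3 is the meiotic STAG protein. Meiotic cohesin forms the base of the chromosome axis on which homologous chromosomes pair and synapse, and Rec8 cohesin at centromeres, shielded by shugoshin from the protease separase, keeps sister chromatids joined through the first meiotic division.

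RNA was sequenced from 12 libraries in 4 groups of 3, all from C57BL/6J mice. Testes came from mice at postnatal day 16 (P16), either WT or Xap5 cKO (XAP5 cKO in the labels), the latter made by crossing floxed Xap5 mice with Stra8-EGFPCre mice. Stra8 drives Cre in male germ cells from the spermatogonial stage onward, so somatic cells of these testes keep the gene, and whole testes were sequenced. In the study's fertility tests the controls of the cKO were Xap5 fl/Y males, and whether the WT testis libraries carried the floxed allele is not given in the sources used here. Sperm came from the cauda epididymis of mice at postnatal day 56 (P56), either WT or Xap5l KO (XAP5L KO in the labels), a constitutive knockout made with CRISPR/Cas9. The series' design calls the 3 libraries of a group biological replicates but does not say how many animals each held, and p-values measure the spread between these libraries. Mature sperm are largely silent in transcription, so their RNA is mostly carried over from earlier stages.

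The libraries held between 32251198 and 52308452 counts. The targeted gene Xap5l (Fam50b) gave 574, 440 and 419 counts for WT sperm and 18, 23 and 8 for Xap5l KO sperm. The targeted gene Xap5 (Fam50a) gave 819, 811 and 988 counts for WT testes and 673, 616 and 651 for Xap5 cKO testes, in which the somatic cells keep the gene. Both genes were also lower in the other tissue. In testes Fam50b gave 532, 539 and 197 counts for WT and 6, 0 and 7 for Xap5 cKO. In sperm Fam50a gave 548, 705 and 689 for WT and 296, 487 and 649 for Xap5l KO. The log2 fold changes were -6.48 and -0.76 (Benjamini-Hochberg adjusted p = 8.09e-05 and 0.0393, edgeR's quasi-likelihood test). For Fam50a in Xap5 cKO testes the log2 fold change was -0.33 (adjusted p = 0.0495, edgeR). On leaving out each library in turn, Fam50a lost its call in 5 of 6 fits in sperm and in 5 of 6 fits in testes. There were 3 libraries that stood apart from their groups. WT testis replicate 3 had summed library-scaled counts (CPM) of 10 pachytene spermatocyte markers of 1736, against 3044 and 2957 in the other WT testes. WT sperm replicate 1 had the highest summed CPM of 10 markers of sperm and elongating spermatids, 146700 against 60330 and 72510 in the other WT sperm. Xap5l KO sperm replicate 3 had 10.5% mitochondrial counts, against 27.4% and 18.6% in its group, and a chi-square per gene of 530.5 and 331.5 against the other Xap5l KO libraries, which differed from each other by 149. Values without these libraries are given for some, but not all, of the results that rest on them.

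The cohesin genes are spread over the genome. In GRCm38, Rec8 lies on chromosome 14 (55618037 to 55625395), Rad21l on chromosome 2 (151645404 to 151668533), Smc1b on chromosome 15 (85064689 to 85131964) and Stag3 on chromosome 5 (138280240 to 138312393). Smc3 lies on chromosome 19 (53600398 to 53645833), Rad21 on chromosome 15 (51962240 to 51991747) and Stag1 on chromosome 9 (100597798 to 100959375). Smc1a (152016428 to 152062694) and Stag2 (42149317 to 42277185) both lie on chromosome X. Sgo2a lies on chromosome 1 (57995971 to 58025899), and 2455 bases, or 35% of its exonic length, overlap Kctd18 on the other strand. Stag2 shares 28 exonic bases with Gm37564, and the other 8 genes share none with an annotated gene. The sources used here do not say if strand was used in counting, so reads of Sgo2a and Kctd18 may not be fully separated.

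RefSeq promoters of GRCm38.p6 were found for 8 of the 10 genes, and no entry matched Rad21 or Stag2. They are shown because all 4 meiotic subunits fell in testes and 3 of them rose in sperm. The sequences run 5′ to 3′ on the strand of the gene and end before the first exon that GENCODE annotates, and capitals mark a match to one of 4 motifs searched on both strands.
Rad21l (chr2:151668534-151668783, - strand): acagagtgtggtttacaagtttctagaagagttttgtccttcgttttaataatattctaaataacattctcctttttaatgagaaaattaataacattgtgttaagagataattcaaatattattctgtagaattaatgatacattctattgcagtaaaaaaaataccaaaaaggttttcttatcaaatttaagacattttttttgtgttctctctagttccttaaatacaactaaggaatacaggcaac
Rec8 (chr14:55617916-55618036, + strand): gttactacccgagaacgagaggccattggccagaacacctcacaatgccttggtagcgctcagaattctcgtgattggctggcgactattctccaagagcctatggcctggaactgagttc
Smc1b (chr15:85131965-85132207, - strand): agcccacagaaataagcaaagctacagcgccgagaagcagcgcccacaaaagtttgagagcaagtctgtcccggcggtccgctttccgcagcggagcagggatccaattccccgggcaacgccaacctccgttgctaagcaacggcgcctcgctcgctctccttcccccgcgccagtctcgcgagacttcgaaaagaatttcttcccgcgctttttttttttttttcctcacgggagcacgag
Smc1a (chrX:152016178-152016427, + strand): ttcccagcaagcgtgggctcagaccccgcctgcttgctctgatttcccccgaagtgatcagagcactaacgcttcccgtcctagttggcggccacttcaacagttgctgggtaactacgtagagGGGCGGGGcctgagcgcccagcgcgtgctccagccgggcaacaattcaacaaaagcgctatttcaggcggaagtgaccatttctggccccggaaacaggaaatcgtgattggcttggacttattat
The Rad21l stretch held 25.6% G and C, against 52.9% for Rec8, 57.6% for Smc1b and 56.8% for the mitotic gene Smc1a. The window of Stag3 lies within an annotated first exon, and only the 30 bases around each of its matches before the start are shown.
Stag3 E-box (chr5:138280327-138280356, + strand): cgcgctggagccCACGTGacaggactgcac
Stag3 MYB (chr5:138280456-138280485, + strand): ccgcgcgaagacCAGTTAatctcgcgcctg
The first motif was GGGCGGGG, which the study names for binding of Xap5 and Xap5l. It was present in 17.6% of all 32851 promoter windows, which run from 250 bases before to 50 after the start, and among the 8 matched genes it was found in Smc1a alone, 126 bases before the start. The E2F motif GGCGGGAA, present in 2.19% of windows, was in none of the 8. The E-box CACGTG, present in 7.15%, was found in Stag3 alone, 170 bases before the start. The MYB motif TAACNG, present in 23.3%, was found in Stag3, 41 bases before and 20 bases after the start, and in Sgo2a, 33 bases after the start. These matches are of letters and not of measured binding, and none of the motifs was found in more than 1 of the 4 meiotic subunits.

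Among the meiotic subunits in testes, Stag3 and Smc1b had the highest levels and the largest falls. Stag3, the meiotic STAG protein, had 442, 456 and 368 CPM in WT testes and 154.5, 154 and 149.9 CPM in Xap5 cKO testes. Smc1b, the meiotic SMC1, had 354, 369 and 322 CPM in WT and 131, 126 and 140.3 CPM in Xap5 cKO testes. For both genes every Xap5 cKO library lay far below every WT library, and WT replicate 3 was the lowest of the WT libraries. Stag3 was 2.76-fold lower, a log2 fold change of -1.47 (standard error, SE, 0.0818, 8.8e-06 as the Benjamini-Hochberg adjusted p of edgeR's quasi-likelihood test). Smc1b was 2.63-fold lower, a log2 fold change of -1.40 (SE 0.0706, adjusted p = 8.8e-06, edgeR). Without WT replicate 3 the values were -1.56 for Stag3 and -1.45 for Smc1b.

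The meiotic kleisins were less abundant in testes, and their log2 fold changes were nearer to 0. Rad21l, which acts early in meiotic prophase, had 40.0, 34.8 and 33.6 CPM in WT testes and 21.9, 16.8 and 17.5 CPM in Xap5 cKO testes. Rec8, the kleisin that remains on chromosomes through the first division, had 44.7, 49.0 and 46.2 CPM in WT and 35.4, 31.05 and 27.4 CPM in Xap5 cKO testes. Neither gene's genotypes overlapped. The log2 fold change of Rad21l was -0.95 (SE 0.135, adjusted p = 0.000377, edgeR) and that of Rec8 was -0.58 (SE 0.111, adjusted p = 0.00213, edgeR). The 95% interval of Rec8, from -0.83 to -0.32, did not reach those of Smc1b, from -1.56 to -1.24, or of Stag3, from -1.65 to -1.28, while that of Rad21l, from -1.25 to -0.64, overlapped that of Smc1b, and the difference between the genes' fold changes was not itself tested.

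Smc3, the subunit common to meiotic and mitotic rings, had a smaller estimated fall than the meiotic subunits. It had 205.5, 209.7 and 220.0 CPM in WT testes and 169, 157 and 166 CPM in Xap5 cKO testes, with no overlap. Its log2 fold change was -0.37 (SE 0.0579, adjusted p = 0.000631, edgeR). The 95% interval of Smc3, from -0.50 to -0.24, overlapped that of Rec8, and the difference between the genes was not tested. Sgo2a, the shugoshin that guards centromeric cohesin with the phosphatase PP2A, had the lowest log2 fold change of the 10 genes, with a 95% interval from -1.72 to -1.36 that overlapped those of Stag3 and Smc1b. It had 90.4, 82.6 and 88.5 CPM in WT and 31.2, 29.15 and 29.6 CPM in Xap5 cKO testes, which is -1.54 as a log2 fold change (SE 0.0795, adjusted p = 8.8e-06, edgeR). For Kctd18, which overlaps it, the log2 fold change was -0.45 (adjusted p = 0.0167, edgeR).

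The mitotic paralogues changed little in testes and not all in one direction. Rad21, the mitotic kleisin, had 276, 287 and 319 CPM in WT and 339, 339.8 and 353 CPM in Xap5 cKO testes. Stag2 had 110.0, 112 and 127.5 CPM in WT and 148, 139.6 and 153 CPM in Xap5 cKO testes. In both genes the Xap5 cKO libraries lay above all WT libraries, with log2 fold changes of 0.23 (SE 0.064, adjusted p = 0.0151, edgeR) and 0.34 (SE 0.0749, adjusted p = 0.00468, edgeR). Stag1 moved the other way, from 232, 231 and 243 CPM in WT to 192, 183 and 217 CPM in Xap5 cKO testes, which is -0.25 as a log2 fold change (SE 0.0712, adjusted p = 0.0145, edgeR). Smc1a had 53.9, 55.8 and 67.0 CPM in WT and 72.1, 69.3 and 66.3 CPM in Xap5 cKO testes. WT replicate 3 overlapped the Xap5 cKO libraries, and the log2 fold change of 0.23, with a 95% interval from 0.01 to 0.45, did not pass the test (adjusted p = 0.0717, edgeR). Without WT replicate 3 it was 0.34 (adjusted p = 0.00665, edgeR).

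In total 7 of the 10 genes fell and 2 rose in Xap5 cKO testes at an adjusted p-value under 0.05, where 28.1% of the 16821 tested genes were lower and 25% were higher. With a fold change above 2 as well, 3 of the 10 genes were lower and none higher by edgeR, against 10.9% and 4.15% of all tested genes. DESeq2 gave the same counts of 3 and 0, and 3 genes were higher at an unadjusted p-value under 0.05 with no fold threshold, where 27.9% of all tested genes were. The Xap5 cKO libraries lay below every WT library in 7 genes and above every WT library in 2, which held for 32.4% and 29.9% of tested genes. Among all tested genes Sgo2a, Stag3 and Smc1b ranked at the 6.8, 7.27 and 7.82 percentiles of log2 fold change. The call of Rad21 was lost without WT replicate 1, WT replicate 2 or Xap5 cKO replicate 3, with adjusted p-values up to 0.0592, and that of Stag1 without Xap5 cKO replicate 1 or 2, with adjusted p-values up to 0.0843 (edgeR).

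**Figure D1:**
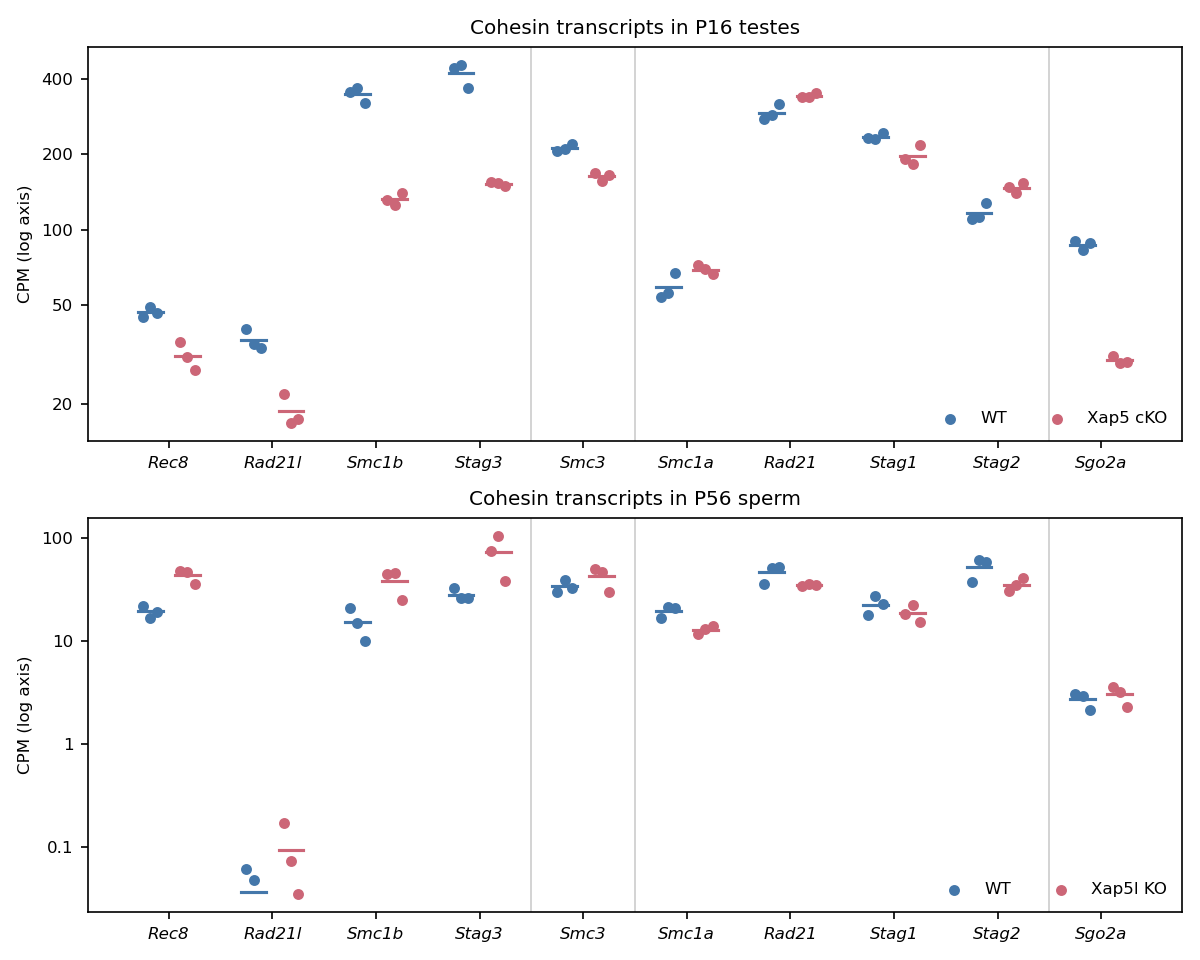
CPM of each gene on a log axis in every library of P16 testes (top) and P56 sperm (bottom), with points for libraries, horizontal lines for group means of 3 libraries, and vertical lines between meiotic, shared, mitotic and shugoshin genes. In testes the Xap5 cKO points of Stag3 lie between 149.9 and 154.5 CPM, below all WT points, and in sperm the Xap5l KO points of Rec8, Smc1b and Stag3 lie above all WT points. A library of Rad21l with 0 counts is not drawn.

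Testis RNA is a mixture, and marker transcripts of several cell types differed between the genotypes too. Of all tested genes 28.1% were lower and 25% higher at an adjusted p-value under 0.05 (edgeR), the shares to set beside the counts below. The 10 markers of leptotene and zygotene spermatocytes were all lower in Xap5 cKO testes, with a median log2 fold change of -1.29 and summed CPM of 2831 to 3224 in WT and 1286 to 1622 in Xap5 cKO. Sycp1, a protein of the synaptonemal complex and the marker with most counts, fell by 1.23 on the log2 scale (adjusted p = 3.54e-05, edgeR). The 10 pachytene markers were also all lower, with a median of -3.01 and summed CPM of 537 to 733 in Xap5 cKO testes, and the most abundant of them, Tex101, fell by 1.02. Few spermatid markers had enough counts to test at P16, and 2 of 4 for round and 1 of 3 for elongating spermatids were lower. Epithelial markers summed to 63.2 to 79.5 CPM in WT and 45.7 to 53.2 CPM in Xap5 cKO testes. Of 12 spermatogonial markers 10 were lower and 1 higher, and their summed CPM went from between 939.9 and 1022 to between 586 and 635. Sertoli cell markers were higher in 9 of 10, with summed CPM of 5197 to 5670 in WT and 9005 to 10700 in Xap5 cKO, of which Clu made up most and rose by 0.85 on the log2 scale. Leydig cell markers were higher in 4 of 7 (330.2 to 466 in WT, 638 to 983 in Xap5 cKO), peritubular myoid markers in 4 of 6 (654.5 to 834 and 979 to 1055) and leukocyte markers in 6 of 8 (77.4 to 111 and 160.0 to 215). The part of these shifts in the cohesin results was not tested. In such bulk RNA fewer cells of a type and less RNA per cell cannot be told apart.

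Among the 10 genes the fall of Stag3 and Smc1b, at -1.47 and -1.40, lay close to the leptotene and zygotene median of -1.29 in log2 fold change, while Rec8 and Rad21l fell less than it and none fell as far as the pachytene median. The summed CPM of the 4 meiotic subunits was 881, 909 and 770.0 for the WT and 343, 327.5 and 335 for the Xap5 cKO libraries. That of the 4 mitotic paralogues was 672, 687 and 756 in WT and 751, 732 and 790.2 in Xap5 cKO, with overlap. WT replicate 3, which had the fewest pachytene transcripts, also had the lowest meiotic and the highest mitotic sum of the WT libraries.

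**Figure D2:**
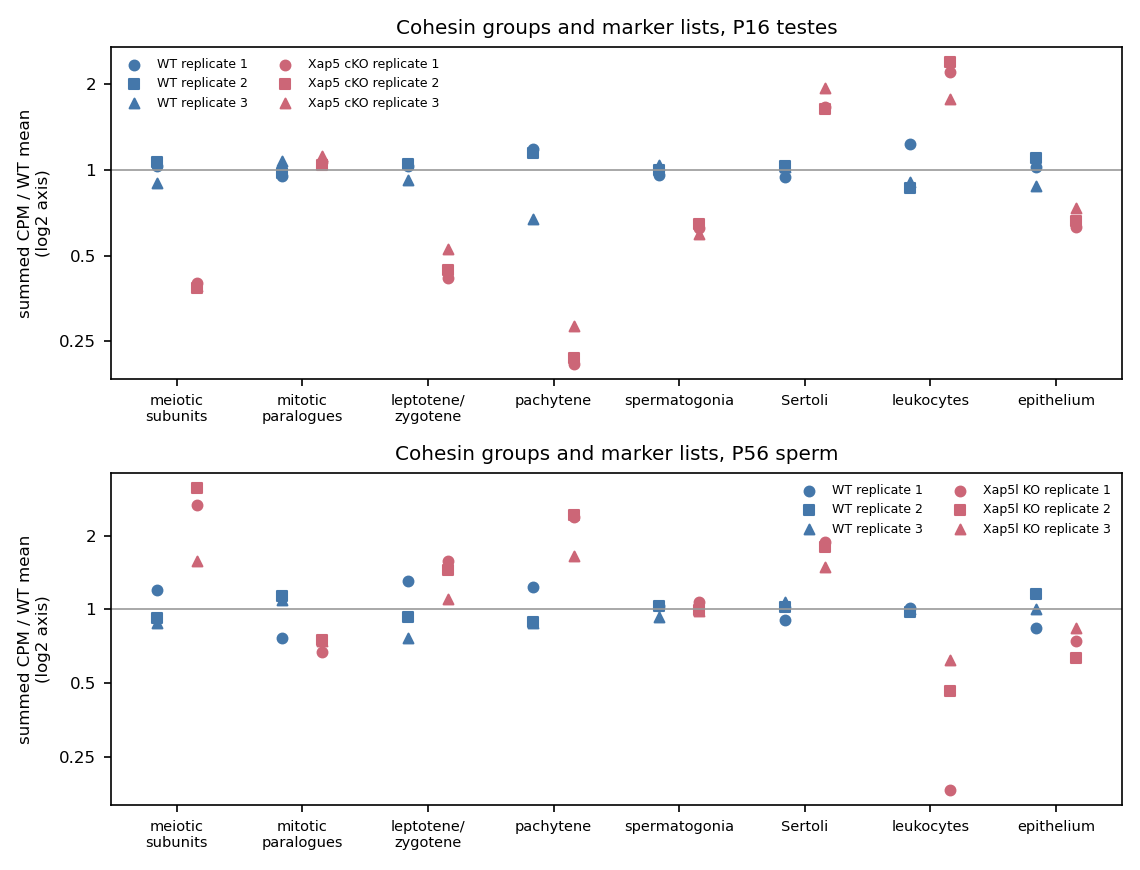
Summed CPM of cohesin groups and marker lists in each library divided by the mean of the 3 WT libraries, on a log2 axis, in testes (top) and sperm (bottom), with marker shapes for replicate numbers. In testes the meiotic subunits of Xap5 cKO libraries lie below all WT libraries beside the leptotene and zygotene and pachytene lists, while Sertoli cell markers lie above them.

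In sperm the meiotic subunits were higher in the knockout. Rec8 had 22.1, 16.8 and 19.3 CPM in WT sperm and 47.5, 46.6 and 35.9 CPM in Xap5l KO sperm. Smc1b had 20.7, 15.0 and 9.88 CPM in WT and 45.1, 45.4 and 24.95 CPM in Xap5l KO sperm. Stag3 had 32.3, 26.2 and 26.0 CPM in WT and 74.9, 105 and 38.5 CPM in Xap5l KO sperm. No Xap5l KO library of these genes fell among the WT libraries, but Xap5l KO replicate 3 was the nearest to them in each. The log2 fold changes were 1.16 for Rec8 (SE 0.211, adjusted p = 0.016), 1.34 for Smc1b (SE 0.322, adjusted p = 0.0309) and 1.37 for Stag3 (SE 0.331, adjusted p = 0.0313), all from edgeR's quasi-likelihood test. They correspond to rises of 2.24-fold, 2.54-fold and 2.58-fold.

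Rad21l was close to absent from sperm. Its counts were 2, 2 and 0 for WT and 6, 4 and 2 for Xap5l KO libraries, and it was removed by the filter on low counts and not tested. No fold change is given, since WT sperm stayed under the floor of 3 counts in each library. Rad21l thus stood apart from the other 3 meiotic subunits, whose lowest count in any sperm library was 458.

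The mitotic paralogues and Smc3 did not pass the test in sperm. Smc1a had 16.8, 21.6 and 20.7 CPM in WT and 11.6, 13.0 and 13.85 CPM in Xap5l KO sperm, which is -0.62 as a log2 fold change with a 95% interval from -1.06 to -0.18 (adjusted p = 0.0664, edgeR). Rad21 had 35.9, 50.7 and 52.75 CPM in WT and 34.0, 35.7 and 34.8 CPM in Xap5l KO sperm, which is -0.41 as a log2 fold change with an interval from -0.88 to 0.05 (adjusted p = 0.194, edgeR). In both genes every Xap5l KO library lay below every WT library, although for Rad21 the nearest libraries had 35.9 and 35.7 CPM. Stag2 had 37.2, 61.4 and 58.5 CPM in WT and 30.3, 34.6 and 41.0 CPM in Xap5l KO sperm, and Stag1 had 17.75, 27.1 and 22.6 CPM in WT and 18.4, 22.3 and 15.2 CPM in Xap5l KO sperm. Their log2 fold changes were -0.57 (interval -1.11 to -0.03, adjusted p = 0.134, edgeR) and -0.27 (interval -0.79 to 0.25, adjusted p = 0.428, edgeR). WT replicate 1 was the lowest WT library for all 4 mitotic genes. Without it Smc1a and Stag2 passed the test, with log2 fold changes of -0.73 (adjusted p = 0.0408) and -0.77 (adjusted p = 0.0436, edgeR).

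Smc3 had 29.6, 38.9 and 33.0 CPM in WT and 50.5, 46.9 and 30.2 CPM in Xap5l KO sperm, which is 0.33 as a log2 fold change with an interval from -0.21 to 0.87 (adjusted p = 0.354, edgeR). Without Xap5l KO replicate 3 it was 0.60 (adjusted p = 0.0647, edgeR). Sgo2a was at a low level, with 3.03, 2.95 and 2.14 CPM in WT and 3.6, 3.18 and 2.3 CPM in Xap5l KO sperm. Its log2 fold change was 0.16 with an interval from -0.48 to 0.79 (adjusted p = 0.714, edgeR), or 0.40 without Xap5l KO replicate 3 (adjusted p = 0.301, edgeR). The interval with all libraries overlapped that of Rec8 in sperm, from 0.69 to 1.63, and the difference between the genes was not tested. Smc3 and Sgo2a both had overlapping genotypes.

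In total 3 of the 9 tested genes rose in Xap5l KO sperm and 0 fell at an adjusted p-value under 0.05 (edgeR), where 9.02% of the 20945 tested genes were higher and 3.07% were lower. At an unadjusted p-value under 0.05, 2 genes were lower, as were 14.9% of all tested genes, and DESeq2 called 0 lower. All 3 rises exceeded 2-fold, which held for 7.59% of all tested genes, while 1.27% fell as far. The Xap5l KO libraries lay above every WT library in 3 genes and below in 2, and each direction held for 19.2% of all tested genes. Stag3, Smc1b and Rec8 ranked at the 93.8, 93.4 and 90.6 percentiles of log2 fold change. Each of the 3 calls was lost on leaving out WT replicate 2 or 3 or Xap5l KO replicate 1 or 2, with log2 fold changes of 1.06 to 1.15 for Rec8, 1.10 to 1.32 for Smc1b and 1.01 to 1.35 for Stag3. That of Stag3 was gone when the replicate number was added as a block (adjusted p = 0.0518, edgeR). Without Xap5l KO replicate 3 the log2 fold changes were 1.36, 1.65 and 1.75 for Rec8, Smc1b and Stag3, and without WT replicate 1 they were 1.25, 1.62 and 1.47, all past the test (edgeR). In the 4 fits that lost the calls the number of higher genes over the whole table dropped from 1889 to 1, 1, 483 and 1.

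Marker transcripts of several cell types also differed between the sperm groups. The shares to set beside the counts below are 9.02% higher and 3.07% lower among all tested genes (edgeR). Without WT replicate 2 or 3 or Xap5l KO replicate 2, the whole table held 1 higher gene, against 1889 with all libraries. The marker calls were not followed gene by gene in those fits. Pachytene markers were higher in 4 of 10, with summed CPM of 992 to 1401 in WT and 1876 to 2752 in Xap5l KO sperm. Within its group, Xap5l KO replicate 3 had the lowest sum of meiotic cohesin subunits, the lowest pachytene sum and the highest round spermatid sum. Round spermatid markers were higher in 6 of 10 (1342 to 2278 in WT, 2099 to 2938 in Xap5l KO), leptotene and zygotene markers in 1 of 10 (34.8 to 59.2 and 49.9 to 71.9) and markers of sperm and elongating spermatids in 1 of 10 (60330 to 146700 and 54760 to 97250). Leukocyte markers were lower in 2 of 8, with sums of 789.5 to 823 in WT and 148 to 503 in Xap5l KO sperm, and the most abundant, Lyz2, had a log2 fold change of -1.41 that did not pass (adjusted p = 0.0625, edgeR). The summed CPM was 5470 to 7549 in WT and 4118 to 5499 in Xap5l KO sperm for epithelium, 29.2 to 32.4 and 30.9 to 33.7 for spermatogonia, 15.6 to 34.5 and 7.48 to 15.4 for Leydig cells, and 10.1 to 14.1 and 7.91 to 14.3 for peritubular myoid cells. Of the Sertoli cell list 1 gene of 8 tested was lower, and the median log2 fold change was -0.97. The sum of this list (641 to 760.3 and 1053 to 1330) came mostly from Clu, whose log2 fold change of 0.81 did not pass (adjusted p = 0.0703, edgeR). The source of these marker transcripts, other cells or RNA carried over in sperm, was not tested, and neither was their part in the cohesin values.

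**Figure D3:**
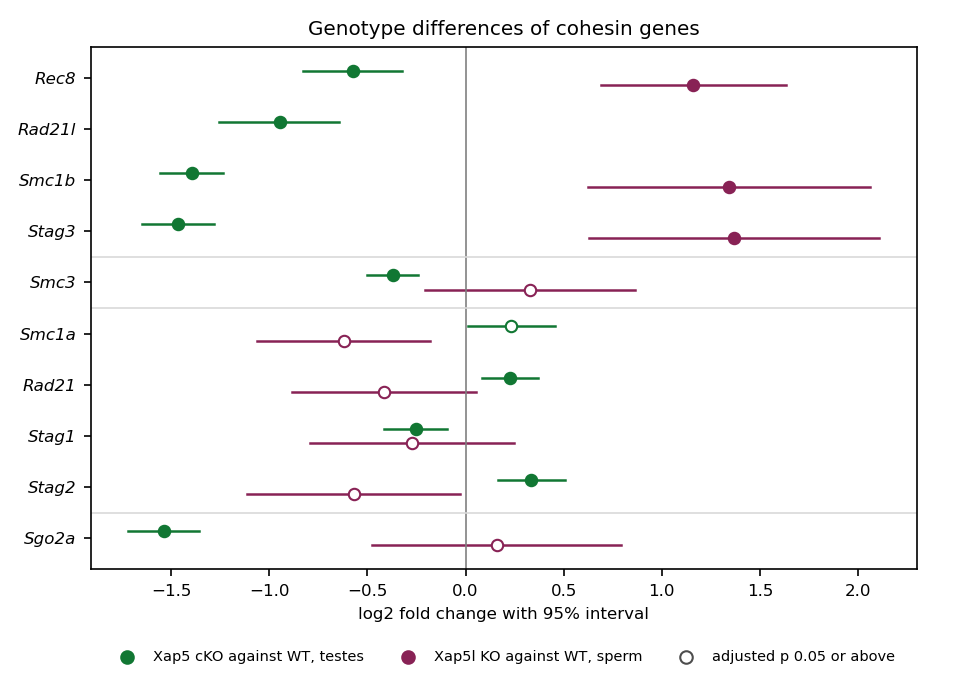
Log2 fold change of each gene with its 95% interval from edgeR, for Xap5 cKO against WT testes (green) and Xap5l KO against WT sperm (purple), with open points where the adjusted p-value was 0.05 or above. The 4 meiotic subunits lie left of 0 in testes and the 3 tested ones lie right of 0 in sperm, between 1.16 and 1.37, while the mitotic paralogues lie between -0.62 and 0.34.

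The comparison of each meiotic subunit with its mitotic paralogue inside a library does not depend on scaling between libraries. For each library the log2 ratio of the counts was taken, and 10 ratios, 5 in each tissue, were compared between genotypes by two-sided exact permutation tests. With 3 libraries against 3 the smallest p such a test can give is 0.1, so no ratio could pass 0.05. In 9 of the 10 ratios the genotypes did not overlap, with p = 0.1 in each exact test and 0.111 after Benjamini-Hochberg adjustment over the 10. In the remaining ratio, Rad21l to Rad21 in sperm, they overlapped (exact permutation p = 0.2), and with 0 to 6 counts of Rad21l the difference of 1.64 became 1.304 when 1 was added to each count in place of 0.5.

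In testes every ratio moved toward the mitotic paralogue. The log2 ratio of Smc1b to Smc1a was 2.72, 2.73 and 2.26 in WT and 0.86, 0.86 and 1.08 in Xap5 cKO libraries, a difference of -1.63. The ratio of Stag3 to Stag2 fell from 2.01, 2.02 and 1.53 to 0.06, 0.14 and -0.03, so that counts of Stag3 and Stag2, not scaled by length, became nearly equal. The difference was -1.80 for Stag3 to Stag2 and -1.20 for Stag3 to Stag1. For the kleisins it was -1.18 for Rad21l to Rad21 and -0.81 for Rec8 to Rad21. WT replicate 3 was the WT library nearest to the Xap5 cKO libraries in each of the 5, and without it the differences were larger, between -0.88 and -1.96.

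In sperm the other 4 ratios moved toward the meiotic subunits. The log2 ratio of Smc1b to Smc1a was 0.30, -0.53 and -1.06 in WT and 1.96, 1.81 and 0.85 in Xap5l KO libraries, a difference of 1.97. That of Rec8 to Rad21 was -0.70, -1.59 and -1.45 in WT and 0.48, 0.38 and 0.05 in Xap5l KO libraries, a difference of 1.55. The differences of Stag3 were 1.53 against Stag1 and 1.80 against Stag2, where the nearest libraries, WT replicate 1 at -0.20 and Xap5l KO replicate 3 at -0.09, were almost equal. WT replicate 1 had the highest ratio of the WT group and Xap5l KO replicate 3 the lowest of the knockout group in each of the 4, and without WT replicate 1 the differences lay between 1.79 and 2.34. Without Xap5l KO replicate 3 the differences lay between 1.68 and 2.32. The 2 comparisons share no library.

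Shares within each subunit family, computed from CPM per kilobase of exonic length, restate these ratios for transcripts, not for protein or assembled rings. In testes Smc1b made up 90.4%, 90.4% and 87.3% of SMC1 transcripts in WT and 72.2%, 72.2% and 75.1% in Xap5 cKO libraries. Stag3 made up 68.2% ± 3.62 of STAG transcripts in WT and 43.6% ± 1.96 in Xap5 cKO testes (SD, n = 3 each). Rec8 and Rad21l together made up 35.2% ± 2.67 of kleisin transcripts in WT and 21.2% ± 2.48 in Xap5 cKO testes. In sperm the same shares rose from 51.3% ± 11.7 to 80.0% ± 7 for Smc1b, from 38.0% ± 9.09 to 66.1% ± 12.5 for Stag3 and from 38.0% ± 7.97 to 64.1% ± 3.72 for the kleisins, the last of which was almost all Rec8. Each of these 6 shares was without overlap between genotypes.

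**Figure D4:**
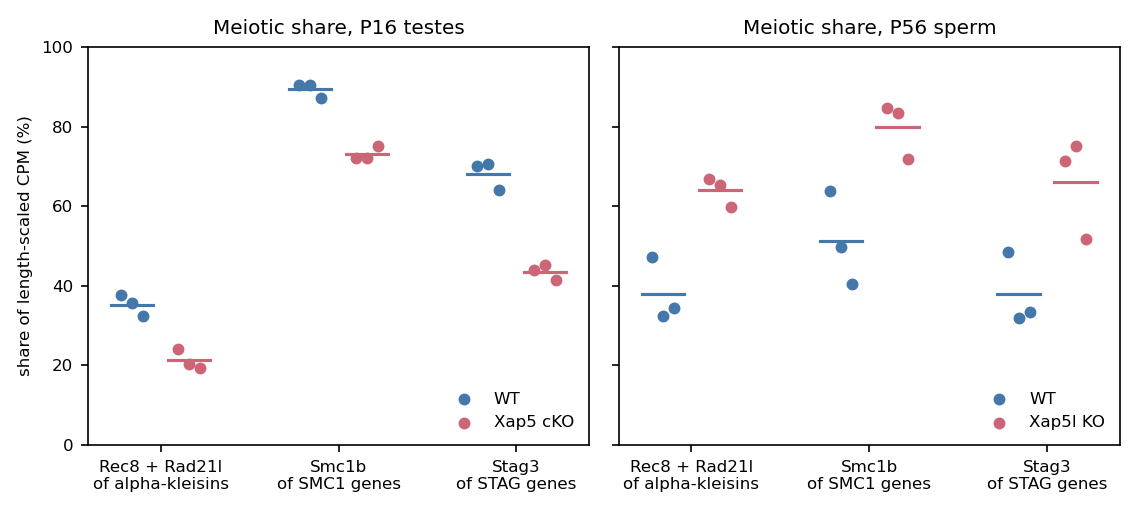
Share of meiotic subunits in the length-scaled CPM of each subunit family in every library of testes (left) and sperm (right), in percent, with points for libraries and lines for means. Xap5 cKO points lie below WT points in testes and Xap5l KO points above WT points in sperm, with the closest pair in sperm for Stag3 at 48.4% and 51.8%.

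Per kilobase of exonic length, the levels could also be ordered between genes within a tissue. Overlap here is judged on the ranges of the 3 libraries of a group, so genes that overlap may keep the same order in every library. In WT testes Smc1b stood at 86.1 ± 5.93 CPM per kilobase, Stag3 at 73.6 ± 8.23 and Rad21 at 69.5 ± 5.18. The ranges of Smc1b and Stag3 met at 79.56, with Smc1b higher in each WT library, and those of Stag3 and Rad21 overlapped. Smc3 followed at 38.2 ± 1.35, clear of both neighbours. Next came Rad21l at 21.8 ± 2.06 and Stag1 at 20 ± 0.556, which overlapped, and Rec8 at 15.9 ± 0.745 and Stag2 at 14.1 ± 1.16, which overlapped by a single library. Within each WT library Rec8 stood above Stag2. Sgo2a at 12.4 ± 0.577 and Smc1a at 10.2 ± 1.23 CPM per kilobase were lowest, each clear of the gene before it. In Xap5 cKO testes Rad21 stood alone at the top with 81.3 ± 1.94 CPM per kilobase, and Smc1b and Stag3 came to 32.7 ± 1.81 and 26.7 ± 0.432, on either side of Smc3 at 29.55 ± 1.11 and without overlap. Stag2 at 17.8 ± 0.831 and Stag1 at 16.8 ± 1.5 overlapped, as did Smc1a at 12 ± 0.502, Rad21l at 11.3 ± 1.68 and Rec8 at 10.7 ± 1.37, and Sgo2a was lowest at 4.28 ± 0.156 CPM per kilobase.

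In WT sperm Rad21 was highest at 10.97 ± 2.18 CPM per kilobase, and Rec8 at 6.6 ± 0.905, Stag2 at 6.33 ± 1.6 and Smc3 at 6.11 ± 0.849 overlapped one another. Stag3 at 4.91 ± 0.63, Smc1b at 3.75 ± 1.34 and Smc1a at 3.41 ± 0.442 came next, each overlapping its neighbour. Stag1 followed at 1.91 ± 0.398, Sgo2a at 0.386 ± 0.0706 and Rad21l at 0.0217 ± 0.0192 CPM per kilobase, each clear of the gene before it. In Xap5l KO sperm the order began with Rec8 at 14.8 ± 2.19, Stag3 at 12.7 ± 5.79 and Smc1b at 9.51 ± 2.9 CPM per kilobase, which overlapped except for Rec8 and Smc1b. Rad21 at 8.23 ± 0.202 lay within the range of Smc1b, and Smc3 at 7.68 ± 1.955 overlapped both. Stag2 at 4.27 ± 0.647, Smc1a at 2.22 ± 0.2, Stag1 at 1.58 ± 0.301, Sgo2a at 0.432 ± 0.0945 and Rad21l at 0.0558 ± 0.0426 CPM per kilobase followed, each clear of the gene before it. The 2 tables were normalized apart, so levels were not compared between tissues.

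Smc1a and Stag2 were also set beside the other genes of chromosome X, which is silenced in pachytene spermatocytes. In testes the 634 tested X-linked genes had a median log2 fold change of 0.42, with 48.7% higher and 9.78% lower, against a median of -0.02 for autosomal genes. Both Smc1a, at 0.23, and Stag2, at 0.34, lay below the X-linked median. Rad21, which is autosomal, rose by a similar 0.23. In sperm the 894 tested X-linked genes had a median of -0.07, with 19.4% higher and 4.81% lower, against a median of -0.10 and 8.59% higher for autosomal genes, and Smc1a and Stag2 lay below it at -0.62 and -0.57, neither past the test.

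Among 22 regulators of cohesin, 16 fell, 1 rose and 5 did not pass the test in Xap5 cKO testes (edgeR, adjusted p under 0.05), where 28.1% of all tested genes were lower and 25% higher. Their median log2 fold change was -0.52. The lowest values were those of a pair of centromere genes. Haspin, the kinase that marks histone H3 at centromeres, had 1469, 1390 and 575 counts in WT and 133, 196 and 109 counts in Xap5 cKO testes, which is -2.89 as a log2 fold change (SE 0.372, adjusted p = 0.000216, edgeR). Meikin, which keeps sister kinetochores together in meiosis I and helps protect Rec8, fell by 2.21 on the log2 scale, from 531, 527 and 368 to 97, 70 and 122 counts. Bub1, the kinase that recruits shugoshin, fell by 1.42. WT replicate 3 was the lowest WT library for Haspin and Meikin, as for the pachytene markers, and without it their log2 fold changes were -3.22 and -2.37.

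Separase, an acetyltransferase and a boundary factor fell as well. Espl1, the separase that cleaves the kleisin, fell by 1.77 on the log2 scale (SE 0.0706, adjusted p = 6.8e-06, edgeR), from 4532, 4651 and 4821 counts to 1192, 1385 and 1258. Esco2, an acetyltransferase that establishes cohesion in S phase, fell by 1.5 (adjusted p = 1.06e-05, edgeR), and Ctcfl, the testis paralogue of the boundary factor Ctcf, by 1.33 (adjusted p = 0.000326, edgeR). For Ctcf itself the log2 fold change was 0.06 (interval -0.10 to 0.22, adjusted p = 0.514, edgeR). The 1 rise was that of Ppp2r1a, the scaffold subunit of PP2A, with 0.43 (adjusted p = 0.000537, edgeR). Of 9 genes for loading and maintenance 7 fell, of 8 for centromere protection 5 fell and 1 rose, all 3 cleavage genes fell, and 1 of 2 boundary factors fell.

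In Xap5l KO sperm 4 of the 21 regulators tested rose and 0 fell (edgeR), against 9.02% and 3.07% of all tested genes. At an unadjusted p-value under 0.05, 4 were lower, where 14.9% of all tested genes were, and DESeq2 called 1 lower. The rises were in centromere protection and cleavage, with Haspin from 3376, 3620 and 3690 counts to 8012, 15130 and 12030, a log2 fold change of 1.40 (adjusted p = 0.013, edgeR). Bub1 rose by 1.32 (adjusted p = 0.0149), Meikin by 1.41 (adjusted p = 0.0257) and Plk1, a kinase that prepares cohesin for release, by 1.47 (adjusted p = 0.0251, edgeR). Meikin was scarce, with 35 to 51 counts in WT and 109 to 158 in Xap5l KO libraries. The calls of the 4 genes were lost on leaving out WT replicate 2 or 3 or Xap5l KO replicate 2, and those of Meikin and Plk1 also without Xap5l KO replicate 1. In loading and maintenance the smallest p-value was that of Esco1, with a log2 fold change of -0.69 (interval -1.17 to -0.21, adjusted p = 0.0615, edgeR), and it passed with DESeq2 and without WT replicate 1 or Xap5l KO replicate 3.

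Condensin and SMC5/6, ring complexes built like cohesin, were measured beside it. In Xap5 cKO testes 13 of their 17 genes fell and 0 rose (edgeR, with 0 higher also at an unadjusted p-value under 0.05 and by DESeq2), with a median log2 fold change of -0.74, and 6 fell by more than 2-fold. Among all tested genes 28.1% were lower, 10.9% by more than 2-fold, and 25% were higher. The largest fall was that of Eid3, an SMC5/6 subunit abundant in testis, from 1435, 1262 and 561 counts to 16, 16 and 40. Its log2 fold change was -5.41 (adjusted p = 3.57e-05, edgeR), or -5.73 without WT replicate 3. The highest value was that of Nsmce4a, at 0.11 (interval -0.07 to 0.29, adjusted p = 0.265, edgeR). In Xap5l KO sperm 2 of 17 rose and 0 fell (edgeR), against 9.02% and 3.07% of all tested genes. Eid3 rose by 1.29 (adjusted p = 0.0162, edgeR), from 1005, 1098 and 1047 counts to 2307, 4351 and 2836 and lost its call without WT replicate 2 or 3 or Xap5l KO replicate 2 (adjusted p up to 0.0938), and Smc5 rose by 0.92 (adjusted p = 0.0231, edgeR). At an unadjusted p-value under 0.05, 5 were lower, where 14.9% of all tested genes were, and DESeq2 called 2 lower. The lowest value, that of Ncapg2 at -1.60, came with an interval from -2.79 to -0.40 (adjusted p = 0.076, edgeR) and passed with DESeq2 and with no filter. Its counts were 317, 517 and 91 in WT and 70, 173 and 159 in Xap5l KO sperm, so WT replicate 3 overlapped the Xap5l KO libraries.

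**Figure D5:**
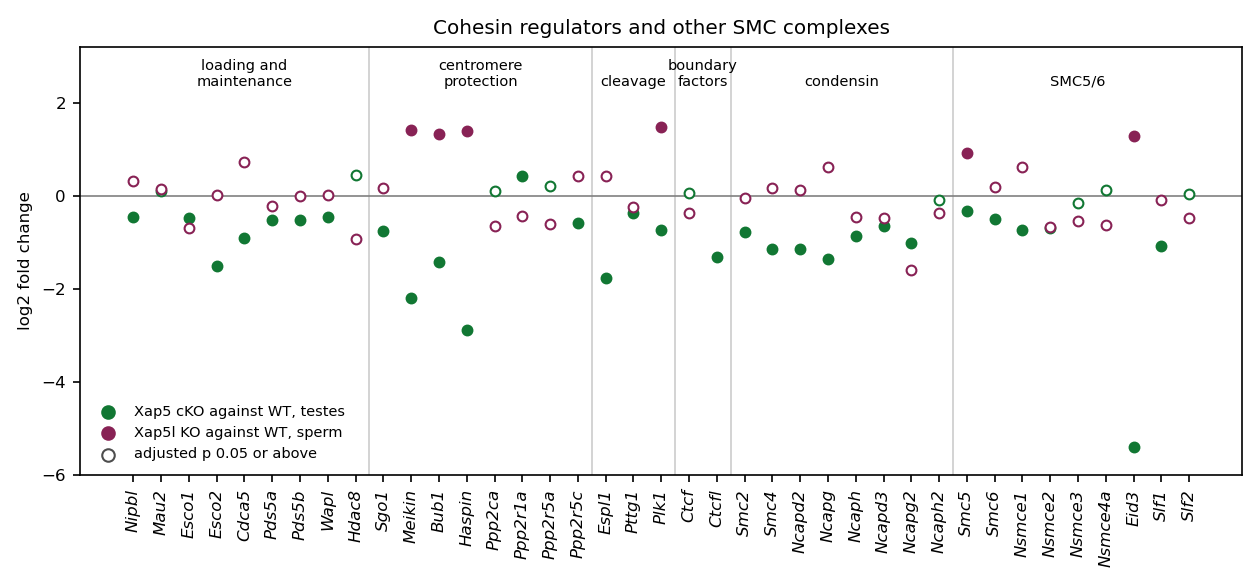
Log2 fold change of 22 cohesin regulators and 17 genes of other SMC complexes in testes (green) and sperm (purple), grouped by role, with open points where the adjusted p-value was 0.05 or above. Haspin, Meikin and Bub1 lie below 0 in testes and above 0 in sperm, and Eid3 shows the lowest value in testes, -5.41.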

How the data were processed

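RNA-seq of 12 libraries in 4 groups of 3 was analysed, grouped by their labels. In the study poly(A) RNA was purified and the authors mapped paired reads to GRCm38/mm10 with HISAT2 2.1.0 after FastQC 0.11.2 and Trimmomatic 0.36, and the counts they deposited are whole numbers, unnormalized, in 1 table for each tissue. The submitters' processing notes name DESeq2 1.12.4. How reads were counted, including multimapping reads and strand, is not given in the sources used here.

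Each table was analysed on its own. Counts were filtered with edgeR's filterByExpr and normalized by TMM, and 20945 genes in sperm and 16821 in testes were tested by the quasi-likelihood test of edgeR, with p-values adjusted by the Benjamini-Hochberg method over all of them, with genotype as the only term. The common BCV (biological coefficient of variation) of edgeR was 0.287 for sperm libraries and 0.174 for testis libraries. Group values are given as mean CPM ± SD over 3 libraries, and intervals are 95%. Levels between genes were divided by the union exonic length of GENCODE vM21. Log2 ratios used counts with 0.5 added. Promoters came from RefSeq, and motifs were searched by exact match. Alternatives were DESeq2, a replicate block, RLE size factors, scaling by library size alone, no filter, a filter of 10 counts in every sample, stricter thresholds and leaving out each library. Replicates differed by far more than sampling noise, so none was counted as a duplicate.

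The cohesin genes, the regulators, the other SMC complexes and the marker lists were chosen with earlier results of these data known, and p-values are not given over any list. Named genes were all cohesin genes, regulators past a fold change of 2 or with the smallest p-value of their role, the largest rise and fall of the other SMC complexes, the targeted genes, the nearest genes in profile, and markers with most counts. Smc5, Ppp2r1a, Ctcf and Kctd18 in testes or sperm were named after their values were seen. On simulated data edgeR called 83.2% of changed genes for sperm and 86.9% for testes. The changed genes had a median absolute log2 fold change of 2.03 for sperm and 1.98 for testes. Recovery at the smaller fold changes of the cohesin genes was not tested. R 4.3.3, edgeR 4.0.16, DESeq2 1.42.0 and Python 3.11.15 were used.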

Additional observations from a re-analysis of the deposited data

How the results depend on the processing

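The direction of the 10 cohesin genes tested in testes and the 9 tested in sperm was the same under all alternatives run. In sperm 3 members were higher, and 0 at an adjusted p-value under 0.01. Leaving out each library gave 0 to 3 higher and 0 to 2 lower. Over all genes in sperm, 1889 higher and 643 lower became 2921 and 1163 with DESeq2, 1215 and 192 with a replicate block, 0 and 0 at an adjusted p-value under 0.01, and between 1 and 3006 higher and between 1 and 1197 lower without 1 library. The lower count was also 392 with no filter, 149 with library size alone and 267 with a fold change above 2. In testes 2 members were higher, 1 at an adjusted p-value under 0.01, 0 with a fold change above 2 and 1 to 3 without 1 library, and 7 were lower, 3 with a fold change above 2. Over all genes 4202 higher and 4734 lower became 698 and 1837 with a fold change above 2, and 3464 to 4331 and 4050 to 4845 without 1 library. Without any 1 library the ratio differences ranged between -1.96 and -0.70 in testes and in sperm between 1.33 and 2.34, or from 0.66 for Rad21l to Rad21. The replicate numbers did not pair the libraries, with correlations of deviations between same-numbered libraries of -0.0809 to 0.149 in sperm and -0.0141 to 0.0125 in testes. Apart from Stag3, no cohesin call changed with the replicate block; among the regulators and targeted genes, Plk1 in sperm (adjusted p = 0.0555, edgeR) and Fam50a in both tissues lost theirs. The median of all genes in sperm was -0.08, and 0.13 with no filter. Depth limits Rad21l in sperm, and 3 libraries a group limit the ratio tests. The causes of these changes were not tested.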

Other observations

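For each cohesin gene the testis table was searched for the genes with the most similar profile, by the root mean square difference of centred log2 CPM over the 6 testis libraries, among 12687 genes. The libraries fall into 2 genotypes, so likeness here mostly reflects a like difference between them, and nothing is implied on shared function. Stag3 was nearest to Chaf1a, a subunit of the histone chaperone CAF-1, at a difference of 0.0404, and to Ccdc172 at 0.041. Smc1b was nearest to Kif20a, a mitotic kinesin, at 0.0512, and to St13 at 0.057. Rad21l was nearest to Zfp41 and Gpaa1, Rec8 to Bud13 and Dhx37, and Sgo2a to Ebf3 and Smpd3, at 0.0813 and 0.082. None of these was another cohesin subunit. The mitotic genes lay closer to their nearest neighbours, with 0.0114 for Rad21 and Vamp1, 0.0193 for Stag1 and Yes1, 0.0195 for Smc1a and a second entry of Rere, and 0.0232 for Stag2 and Mmut. Smc3 and Adal differed by 0.00689.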
